A study of Mus musculus with 4 samples.

Results

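The genes described here are 10 transcripts of TGF-β signaling in tumor-infiltrating CD8+ T cells, chosen by name for their place in the pathway: the ligand gene *Tgfb1*, the receptor genes *Tgfbr1*, *Tgfbr2* and *Tgfbr3*, the signal transducers *Smad2*, *Smad3* and *Smad4*, the inhibitory *Smad7*, and the corepressor genes *Ski* and *Skil*. They are 10 of the 15981 gene identifiers listed in the 4 tables of the series, and all 10 were found. RNA was sequenced from Tc1 cells (2 libraries) and Tc9 cells (2 libraries), which are CD8+ T cells primed in culture toward IFN-γ or IL-9 production. All cells were Thy1.1+ Pmel-1 CD8+ T cells, which carry a transgenic receptor for a melanoma antigen. Tc9 cells had been polarized with IL-4, TGF-β and an antibody against IFN-γ, and Tc1 cells with rhIL-2, and both were then kept in medium with rhIL-2, for 5 days of culture in all. They were injected into Thy1.2+ B6 mice with 10-day subcutaneous tumors of B16, a mouse melanoma line, and sorted from the tumors 14 days later. The hosts also received cyclophosphamide, peptide-pulsed dendritic cells and rhIL-2, which both groups shared. Each library is a pool of RNA from sorted cells of several mice, combined into 2 samples per group. The study's methods give a number of mice but not how many went into each pool, and the age and sex of the hosts are not given in the labels. TGF-β was thus part of the Tc9 culture and not of the Tc1 culture, and the transcripts were measured after the stay in the tumor.

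TGF-β is secreted as a latent complex and acts, once released, through a type II receptor (TGFBR2) that phosphorylates a type I receptor (TGFBR1, also called ALK5). TGFBR1 then phosphorylates SMAD2 and SMAD3, which join SMAD4 and act on genes in the nucleus, while SMAD7 blocks the receptor and SKI and SKIL (SnoN) recruit corepressors to SMAD complexes. In T cells TGF-β restrains effector functions, induces *Itgae*, which encodes the CD103 integrin chain of tissue-resident cells, and together with IL-4 turns on *Il9*.

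The tables list genes in the order of their identifiers and stop at different points, so the libraries share different ranges of genes. None of the 10 genes lies in the range of all 4 libraries, because the table of Tc1 replicate 1 ends before them. *Smad2*, *Smad3*, *Smad4* and *Smad7* were covered by 3 libraries (Tc1 replicate 2 and both Tc9 libraries), and the other 6 genes by Tc1 replicate 2 and Tc9 replicate 2 alone. For those 6 there was 1 library per group and therefore no test. Depth was 31834276 and 31927162 counts for Tc1 replicates 1 and 2 and 31105615 and 30822953 for Tc9 replicates 1 and 2, and 3 counts amount to at most 0.0956 CPM (counts scaled to a common depth) in a library. The T cell genes *Cd8a*, *Cd3d*, *Cd3e*, *Cd3g*, *Cd247*, *Cd8b1* and *Cd2* were high in all 4 libraries, *Cd8a* with 21622 and 21532 counts in Tc1, against 21166 and 19330 in Tc9. *Cd3e* and *Cd3g* were higher and *Cd2* lower in Tc9 (adjusted p = 0.0108, 0.00995 and 0.0107, edgeR over 4 libraries). The melanoma genes *Tyrp1*, *Sox10* and *Slc45a2* were at 0 counts in both replicate 2 libraries, and *Dct* in all 3 libraries that cover it.

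To show the regions from which the ligand and both signaling receptor chains are transcribed, the RefSeq windows (GRCm38.p6, from 250 bases before to 50 after the annotated start, 5′ to 3′) are printed for *Tgfb1* (chr7:25686752-25687051, plus strand), *Tgfbr1* (chr4:47352972-47353271, plus strand) and *Tgfbr2* (chr9:116175314-116175613, minus strand). Capitals mark the GC box (GGGCGG or its reverse complement CCGCCC, the letters bound by Sp1) and the SMAD box (GTCT or AGAC, the core letters contacted by SMAD3 and SMAD4).
Tgfb1: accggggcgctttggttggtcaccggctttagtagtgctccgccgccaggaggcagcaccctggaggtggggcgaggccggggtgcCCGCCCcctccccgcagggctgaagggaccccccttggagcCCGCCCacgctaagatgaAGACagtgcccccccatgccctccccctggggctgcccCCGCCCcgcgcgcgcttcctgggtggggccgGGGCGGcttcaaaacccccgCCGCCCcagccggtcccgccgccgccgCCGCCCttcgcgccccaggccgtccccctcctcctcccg
Tgfbr1: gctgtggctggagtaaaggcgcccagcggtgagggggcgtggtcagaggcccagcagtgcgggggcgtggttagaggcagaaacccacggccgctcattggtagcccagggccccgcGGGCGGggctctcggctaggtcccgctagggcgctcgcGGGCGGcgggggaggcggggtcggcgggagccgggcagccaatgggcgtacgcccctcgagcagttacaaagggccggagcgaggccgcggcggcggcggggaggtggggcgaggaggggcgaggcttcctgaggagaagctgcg
Tgfbr2: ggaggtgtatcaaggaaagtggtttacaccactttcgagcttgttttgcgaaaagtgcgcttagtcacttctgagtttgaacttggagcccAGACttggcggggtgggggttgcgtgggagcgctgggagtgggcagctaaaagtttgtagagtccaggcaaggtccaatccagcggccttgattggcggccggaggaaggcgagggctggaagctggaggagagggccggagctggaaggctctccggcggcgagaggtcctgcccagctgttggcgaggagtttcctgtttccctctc
The *Tgfb1* window holds 6 GC boxes and 1 SMAD box, the *Tgfbr1* window 2 GC boxes and no SMAD box, and the *Tgfbr2* window no GC box and 1 SMAD box. Of 32851 promoter windows of this length, 35.7% hold a GC box and 88.0% a SMAD box, so the short SMAD letters are found nearly everywhere. GC content was 77.0% in the *Tgfb1* window, 74.7% in the *Tgfbr1* window and 59.0% in the *Tgfbr2* window, against a median of 52.7% over all windows. Windows were at hand for 5 of the 10 genes, the others being *Smad3*, with 2 GC boxes, and *Ski*, with 6. No binding of any factor was measured here. *Tgfbr1* has a further annotated start at which 2 SMAD boxes and no GC box were found.

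Of the 10 transcripts, 8 were higher and 2 lower in Tc9 replicate 2 than in Tc1 replicate 2, where 52.4% of the 6225 genes compared were higher. The receptor transcripts *Tgfbr1* and *Tgfbr3* were each over 2-fold higher in the Tc9 library, *Tgfb1* was 1.64-fold higher, and the corepressor transcript *Skil* was 1.79-fold lower. Past 2-fold higher lay 2 of the 10, against 10.9% of all genes compared, and past 2-fold lower lay 0 of the 10, against 4.95%. The median log2 ratio of the 10 genes was 0.29 and that of all genes compared 0.03. In these bulk samples, fewer cells of a type and less RNA per cell cannot be told apart. How the mice and cultures were divided between the pools is not stated, so spreads and p-values measure only the differences between these libraries, which may be technical.

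The spread between libraries of one group served as a yardstick. Among genes with a mean count of at least 200, 95% differed by at most 0.52 on the log2 scale between both Tc9 libraries (1895 genes) and by at most 0.20 between both Tc1 libraries (959 genes). All 10 genes exceed this mean count, *Smad7* with 365.5 counts having the lowest. Beyond the wider spread of the Tc9 pair, 3 of the 10 (*Tgfb1*, *Tgfbr1* and *Tgfbr3*) were higher, against 17.2% of 4622 genes, and 1 of the 10 (*Skil*) was lower, against 13.3%. The log2 ratios of *Tgfbr2*, *Ski* and the 4 SMAD transcripts stayed within it. The intervals given below are 95% intervals from the counts of 2 libraries (Wilson) and cover counting error only.

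**Figure D1:**
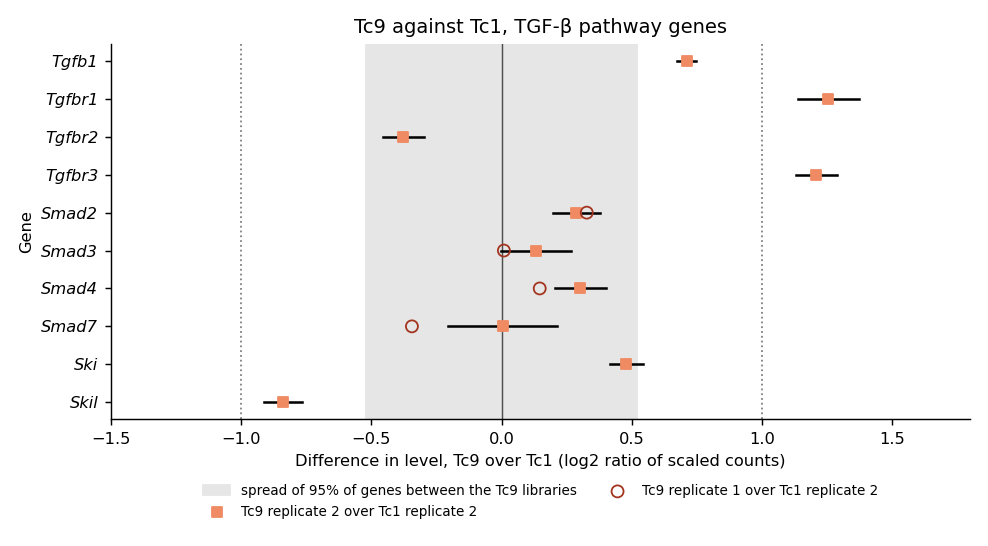
Log2 ratio of scaled counts in Tc9 over Tc1 for the 10 genes, with squares for the replicate 2 libraries, black lines for their 95% counting intervals and open circles for Tc9 replicate 1 over Tc1 replicate 2 where that library covers the gene. The grey band is the spread of 95% of well-measured genes between the Tc9 libraries (0.52 to either side), dotted lines mark 2-fold, and *Tgfb1*, *Tgfbr1*, *Tgfbr3* and *Skil* lie outside the band.

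*Tgfb1* encodes TGF-β1, the main ligand made by lymphocytes (chromosome 7, 25687002 to 25705077). Its transcript was counted 10438 times in Tc1 replicate 2 and 17064 times in Tc9 replicate 2, or 159.5 and 269.85 FPKM (fragments scaled by gene length and library depth, a level per length). The log2 ratio of the counts was 0.71 (0.67 to 0.75). Per length it was the highest of the 10 transcripts in both libraries, 8.04-fold above the next in Tc1 and 9.69-fold above the next in Tc9, and in Tc9 replicate 2 its level exceeded that of 98.5% of the genes listed. Both T cell populations thus carried the ligand transcript at a high level, with the higher value in the Tc9 library.

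The other transcripts of ligands and their release compared here were, apart from *Nrros*, *Furin* and *Itgav*, at low counts. *Tgfb3*, which encodes another TGF-β ligand, had 30 counts in Tc1 replicate 2 and 127 in Tc9 replicate 2, which gives a log2 ratio of 2.01 (1.51 to 2.65). *Tgfb2* had 12 and 10 counts. *Ltbp3*, which encodes a protein that binds latent TGF-β in the matrix, had 52 counts in Tc1 replicate 2, against 158 and 230 in the Tc9 libraries. It rose by 1.90 on the log2 scale (SE 0.35, adjusted p = 0.0243 by edgeR's quasi-likelihood test over 3 libraries), and with no filter on low counts its adjusted p was 0.257. *Thbs1*, whose product can release active TGF-β, had 8 and 44 counts (log2 ratio 2.20, 1.4 to 3.52). *Nrros*, which encodes an anchor of latent TGF-β, had 1068 and 1622 counts and *Furin*, the protease gene for the precursor, 4222 and 4394, both within 2-fold. *Itgav*, the αv integrin chain gene, had 5574 counts in Tc1 and 3674 and 3364 in Tc9 (log2 difference -0.66, adjusted p = 0.113 by edgeR). It passed the threshold with DESeq2 (0.0266), with a minimum count of 50 (0.0432) and with TMM factors from the 3-library range (0.0328), and not under the other 4 settings (0.064 to 0.257). *Lrrc32*, which encodes GARP, the anchor of latent TGF-β on regulatory T cells, was covered by Tc9 replicate 2 alone, with 999 counts.

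*Tgfbr1*, the type I receptor gene (chromosome 4, 47353222 to 47414926), had 840 counts in Tc1 replicate 2 and 2004 in Tc9 replicate 2. This is a log2 ratio of 1.25 (1.14 to 1.37), or 2.38-fold, and 7.81% of the genes compared had a higher ratio. *Tgfbr3*, the betaglycan co-receptor gene (chromosome 5, 107106567 to 107289629), had 1842 and 4254 counts, a log2 ratio of 1.21 (1.13 to 1.29), or 2.31-fold. The signaling type I chain and the co-receptor were thus higher in the Tc9 library by nearly the same factor. *Tgfbr2*, the type II receptor gene (chromosome 9, 116087695 to 116175363), went the other way, with 2937 counts in Tc1 and 2259 in Tc9. Its log2 ratio was -0.38 (-0.46 to -0.30), which counting error does not cover and which lies within the spread between the Tc9 libraries.

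Because the receptor works as a complex of both chains, their ratio within a library was also computed from FPKM. *Tgfbr1* stood at 4.66 FPKM and *Tgfbr2* at 19.84 FPKM in Tc1 replicate 2, a ratio of 0.235. In Tc9 replicate 2 they stood at 11.54 and 15.84 FPKM, a ratio of 0.729. The type II transcript was the higher one in both libraries, and the ratio of type I to type II was 3.10-fold higher in the Tc9 library (log2 difference 1.63, with a 95% interval of 1.49 to 1.77 from the 4 counts on the log scale, as for the other ratios between genes). This ratio needs no scaling between libraries. *Tgfbr3* was at 9.67 FPKM in Tc1 and 23.19 in Tc9, which is 0.487 and 1.46 times *Tgfbr2*, so that the order of these 2 transcripts was turned. Relative to *Tgfbr1*, *Tgfbr3* stood at 2.08 times in Tc1 and 2.01 times in Tc9, with a log2 difference of -0.05 (-0.19 to 0.09).

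**Figure D2:**
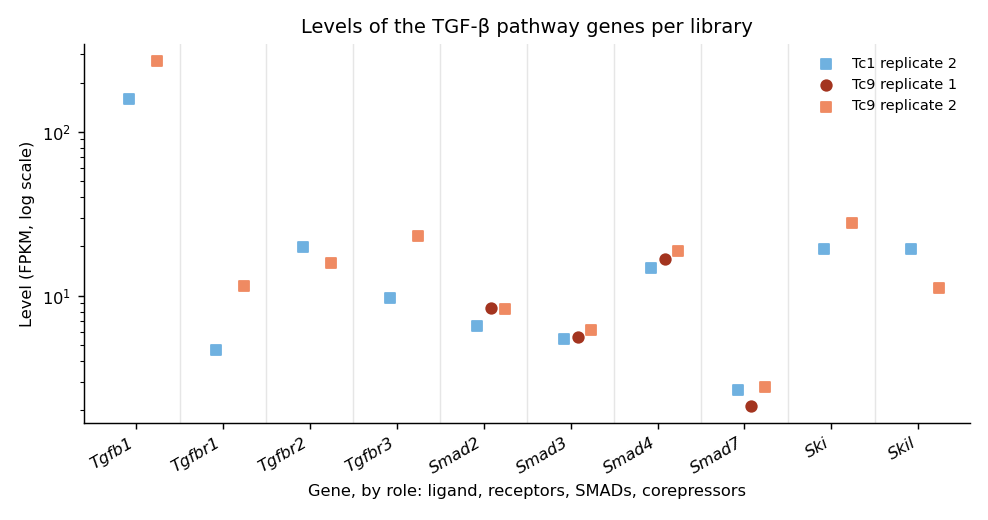
Level per length (FPKM, logarithmic axis) of the 10 genes in each library that covers them, with blue squares for Tc1 replicate 2, dark red circles for Tc9 replicate 1 and orange squares for Tc9 replicate 2. *Tgfb1* stands above all others, *Smad7* is lowest, and the receptor transcripts *Tgfbr1* and *Tgfbr2* lie closer together in Tc9 (11.54 and 15.84) than in Tc1 (4.66 and 19.84).

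The SMAD transcripts could be tested over 3 libraries, with the lone Tc1 library assumed to vary like the Tc9 pair. In that test by edgeR (quasi-likelihood, Benjamini-Hochberg over 2622 genes), 7.51% of all genes were higher and 3.2% lower in Tc9 at an adjusted p under 0.05, and 0 of the 4 SMAD members passed it. At an unadjusted p under 0.05 the count was also 0 of 4, as it was with DESeq2 and with limma. The 95% intervals of all 4 differences included 0.

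*Smad2* encodes a receptor-regulated SMAD. It had 1805 counts in Tc1 replicate 2, against 2264 and 2200 in the Tc9 libraries, so that both Tc9 values were above the Tc1 value. The log2 difference was 0.31 (SE 0.21, 95% interval -0.21 to 0.83, adjusted p = 0.398, edgeR). *Smad3*, the other receptor-regulated SMAD gene of this branch (chromosome 9, 63646766 to 63757994), had 860 counts in Tc1 and 865 and 942 in Tc9. Its log2 difference was 0.07 (SE 0.21, interval -0.43 to 0.58, adjusted p = 0.852, edgeR).

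*Smad4*, the gene of the common partner, had 1520 counts in Tc1 and 1682 and 1872 in Tc9, again with both Tc9 values above. The log2 difference was 0.23 (SE 0.22, interval -0.30 to 0.76, adjusted p = 0.542, edgeR). *Smad7*, the inhibitory SMAD gene and itself a textbook target of the pathway, had 365 counts in Tc1 and 287 and 366 in Tc9. The Tc1 value lay between the Tc9 values, and the log2 difference was -0.16 (SE 0.25, interval -0.76 to 0.44, adjusted p = 0.710, edgeR). In the replicate 2 libraries its log2 ratio was 0.0049, whose sign turned to -0.026 with scaling factors from those 2 libraries and to -0.17 with Tc9 replicate 1 averaged in. The intervals of the 4 SMAD transcripts together run from -0.76 to 0.83 on the log2 scale, and differences within them are not resolved by these libraries.

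Per length, *Smad4* was the highest of the 4 SMAD members in each of the 3 libraries (14.76 FPKM in Tc1, 16.78 and 18.85 in Tc9) and *Smad7* the lowest (2.65 in Tc1, 2.14 and 2.76 in Tc9). *Smad2* (6.56, 8.46 and 8.31 FPKM) was above *Smad3* (5.43, 5.61 and 6.17 FPKM), by 1.21 times in Tc1 and 1.51 and 1.35 times in Tc9. A fold of 1.43 is the yardstick here, the spread of 0.52 written as a ratio, and *Smad2* exceeded *Smad3* by more than it in Tc9 replicate 1 alone. The order *Smad4*, *Smad2*, *Smad3*, *Smad7* was the same in the 3 libraries. *Smad1* and *Smad5*, which carry BMP signals, had 199 and 589 counts in Tc1 replicate 2, 280 and 734 in Tc9 replicate 1, and 296 and 680 in Tc9 replicate 2 (adjusted p = 0.202 and 0.458, edgeR). *Smad6*, the other inhibitory SMAD gene, had at most 2 counts in the libraries that cover it.

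Of the corepressor transcripts, *Skil* differed by more than the spread between the Tc9 libraries and *Ski* did not. *Ski* (chromosome 4, 155154075 to 155222535) had 3264 counts in Tc1 replicate 2 and 4548 in Tc9 replicate 2, which gives a log2 ratio of 0.48 (0.41 to 0.54). *Skil* (chromosome 3, 31095058 to 31122923), a gene that TGF-β induces in many cells, had 4191 and 2342 counts, a log2 ratio of -0.84 (-0.91 to -0.77). In FPKM the pair was level in the Tc1 library, at 19.21 and 19.17, and apart in the Tc9 library, at 27.84 and 11.12. *Ski* over *Skil* was thus 1.0 in Tc1 and 2.50 in Tc9, a log2 difference of 1.32 (1.22 to 1.42). Among the 10 genes, *Skil* had the lowest log2 ratio and *Tgfbr1* the highest.

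The order of all 10 levels per length also differed between the replicate 2 libraries. In Tc1 it ran *Tgfb1*, *Tgfbr2*, *Ski*, *Skil*, *Smad4*, *Tgfbr3*, *Smad2*, *Smad3*, *Tgfbr1*, *Smad7*, and in Tc9 *Tgfb1*, *Ski*, *Tgfbr3*, *Smad4*, *Tgfbr2*, *Tgfbr1*, *Skil*, *Smad2*, *Smad3*, *Smad7*. Neighbours differed by more than 1.43-fold in 4 of 9 steps in Tc1, namely below *Tgfb1*, below *Smad4*, below *Tgfbr3* and above *Smad7*. In Tc9 they did so in 2 of 9 steps, below *Tgfb1* and above *Smad7*, so neighbouring places among the other 8 are not firm. Genes farther apart could still differ by more, as *Ski* over *Skil* at 2.50-fold.

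The remaining genes of the pathway were counted over 8 lists by role. Of the 183 genes on them, 28 could be tested in all 4 libraries, 35 in 3 libraries and 58 were compared in the replicate 2 libraries, while 33 were covered by Tc9 replicate 2 alone and 29 had too few counts in their comparison. In the test over 4 libraries (1284 genes, of which 17.4% were higher and 16.7% lower in Tc9), 8 of the 28 were higher and 3 lower. Over 3 libraries 8 of the 35 were higher and 2 lower, where 7.51% and 3.2% of all genes were. In the replicate 2 libraries 8 of the 58 were past 2-fold higher and 2 past 2-fold lower, shares near the 10.9% and 4.95% of all genes compared. The median log2 difference was 0.14, 0.26 and 0.09 in these comparisons, against 0.0014, 0.05 and 0.03 for all genes.

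The activin and BMP receptors, relatives of the TGF-β receptors that use the same plan of type I and type II chains, were the role list with the most calls over 4 libraries. Of 7 such receptor genes tested, 6 were higher in Tc9 and 0 lower, where 17.4% of all genes were higher and 16.7% lower. The median log2 difference of the 7 was 1.19. *Acvrl1*, the gene of the type I receptor ALK1, had 31 and 28 counts in Tc1, against 365 and 439 in Tc9, a log2 difference of 3.77 (SE 0.20, adjusted p = 1.38e-06, edgeR). ALK1 is best known from endothelial cells, where it passes BMP9 and TGF-β signals to SMAD1 and SMAD5. The endothelial genes *Cdh5*, *Tek* and *Kdr* had at most 2 counts in the libraries that cover them, *Vwf* had 18 counts in Tc1 replicate 2 and 6 in Tc9 replicate 2, and *Pecam1*, which T cells also express, had 445 and 446. The summed level of the 5 endothelial genes was 14.8 CPM in Tc1 replicate 2 and 14.5 CPM in Tc9 replicate 2.

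The type II receptor genes *Acvr2a* and *Bmpr2* rose together. *Acvr2a* had 242 and 264 expected counts in Tc1, against 806 and 701 in Tc9 (log2 difference 1.58, SE 0.14, adjusted p = 2.81e-05, edgeR). *Bmpr2* had 332 and 317 counts in Tc1, against 885 and 731 in Tc9 (log2 difference 1.32, SE 0.14, adjusted p = 9.00e-05, edgeR). In each of these 3 genes both Tc9 libraries lay well above both Tc1 libraries.

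Smaller rises passed the test for 3 more. *Acvr2b* had 27 and 23 counts in Tc1, against 52 and 62 in Tc9 (log2 difference 1.19, SE 0.27, adjusted p = 0.00871, edgeR). *Acvr1*, the gene of ALK2, had 96 and 87 counts in Tc1, against 125 and 160 in Tc9 (0.64, SE 0.20, adjusted p = 0.0359), and *Acvr1b*, the gene of ALK4, had 143 and 150 in Tc1 and 226 and 215 in Tc9 (0.59, SE 0.16, adjusted p = 0.0170). In fits without Tc1 replicate 1 or without Tc1 replicate 2, which leave a lone Tc1 library, fewer genes were called throughout. There *Acvr2b* (log2 difference 1.31 and 1.08), *Acvr1* (0.71 and 0.58) and *Acvr1b* (0.56 and 0.63) no longer passed. Without Tc9 replicate 2 *Acvr1* also missed the threshold (adjusted p = 0.0876), as it did with DESeq2 (0.0914) and with no filter (0.0877), and *Acvr2b* missed it with limma on FPKM (0.0588 and 0.119 with pseudocounts of 0.1 and 1). *Bmpr1a*, the gene of ALK3, had 219 and 194 counts in Tc1, against 327 and 231 in Tc9 and did not pass it (log2 difference 0.44, SE 0.19, adjusted p = 0.0984, and 0.00389 without Tc9 replicate 2). Of the co-receptors, *Eng*, which encodes endoglin, had 518 counts in Tc1 replicate 2, against 591 and 944 in Tc9 (log2 difference 0.57, adjusted p = 0.313, edgeR), and *Vasn* and *Nrp1* were within 2-fold.

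**Figure D3:**
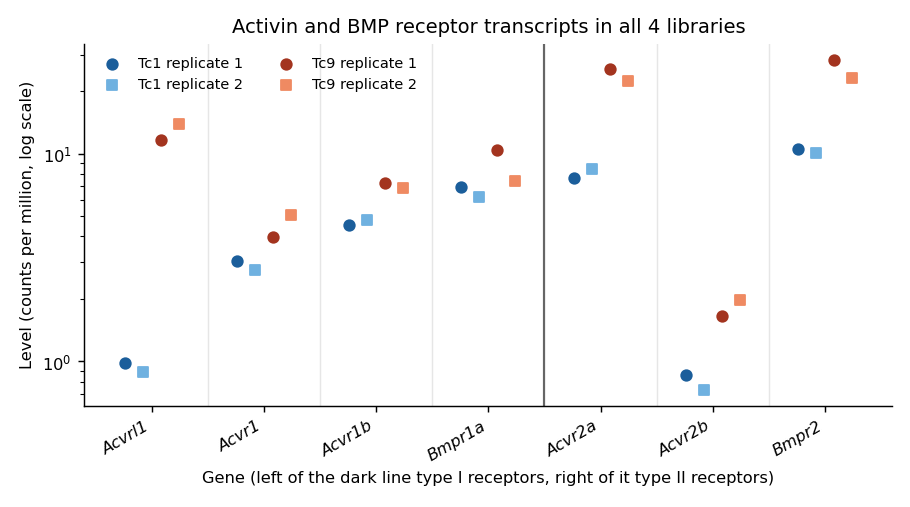
Level of the 7 tested activin and BMP receptor transcripts in CPM (logarithmic axis) in each of the 4 libraries, Tc1 in blue and Tc9 in red and orange, with circles for replicate 1 and squares for replicate 2. Both Tc9 points lie above both Tc1 points for each gene, with the widest gap for *Acvrl1*.

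Transcripts known to respond to TGF-β, in either direction and in various cells, included the *Il9* and *Itgae* genes. This list was drawn up with earlier results of these data known and holds the gene that defines Tc9 cells, so its counts are a description and no independent evidence. Over 3 libraries 7 of its 15 tested genes were higher in Tc9 and 2 lower, and in the replicate 2 libraries 4 of 10 were past 2-fold higher and 2 past 2-fold lower. The shares of all genes were 7.51% and 3.2% over 3 libraries, and 10.9% and 4.95% in the replicate 2 libraries. Over 4 libraries 1 of 4 was higher (*Cdh1*) and 1 lower (*Cdkn1a*), beside 17.4% and 16.7% of all genes. *Itgae* had 59 counts in Tc1 replicate 2, against 4599 and 4619 in the Tc9 libraries, a log2 difference of 6.29 (SE 0.31, adjusted p = 0.000851, edgeR). *Il9* had 3 counts in Tc1 and 2601 and 2667 in Tc9 (adjusted p = 0.000851, edgeR), a ratio between the replicate 2 libraries of 890 with a counting interval of 302 to 2617. *Ccr8*, a chemokine receptor gene of regulatory and TH2 cells, had 99 counts in Tc1 and 2540 and 2622 in Tc9 (log2 difference 4.70, SE 0.28, adjusted p = 0.00125, edgeR). Both Tc9 libraries gave nearly the same count for each of these 3 genes.

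*Cx3cr1*, the fractalkine receptor gene, had 3 counts in Tc1 and 134 and 132 in Tc9 (adjusted p = 0.00257, edgeR), a ratio between the replicate 2 libraries of 44 (14.8 to 131). *Id1*, a common target of SMAD1 and SMAD5, had 5 counts in Tc1 and 68 and 79 in Tc9 (log2 difference 3.85, SE 0.48, adjusted p = 0.00758, edgeR). Its relatives *Id3* (104 counts in Tc1, 224 and 215 in Tc9, adjusted p = 0.0481) and *Id2* (2472 in Tc1, 2893 and 2765 in Tc9, adjusted p = 0.597) differed less, and with DESeq2 the adjusted p of *Id3* was 0.0747. With no filter on low counts, the test over 3 libraries called 0 genes at all, and each of the calls named here had an adjusted p of 0.203 or more.

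*Foxp3*, the master gene of regulatory T cells, which TGF-β induces on activation, had an expected count of 34.6 in Tc1 replicate 2 and 1592 in Tc9 replicate 2, which gives a log2 ratio of 5.44 (5.03 to 5.99). In FPKM it stood at 0.19 and 13.65, a wider gap than in the counts. Its counts were not whole, which in expected counts means that some reads were divided between transcripts. *Cd4*, a marker of CD4 T cells in general, had 50 and 45 counts in Tc1, against 56 and 58 in Tc9. This is at most 0.64 FPKM, where *Cd8a* was at 209 FPKM or more. Whether a few other cells or all sorted cells carried *Foxp3* was not tested. *Timp1*, which encodes an inhibitor of matrix proteases, had 9 and 80 counts (log2 ratio 2.90, 2.18 to 4.13). *Rgs16*, a regulator of G protein signaling, was the list's strongest decrease by ratio, from 3180 counts in Tc1 to 355 in Tc9 (log2 ratio -3.15, -3.32 to -3.00).

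**Figure D4:**
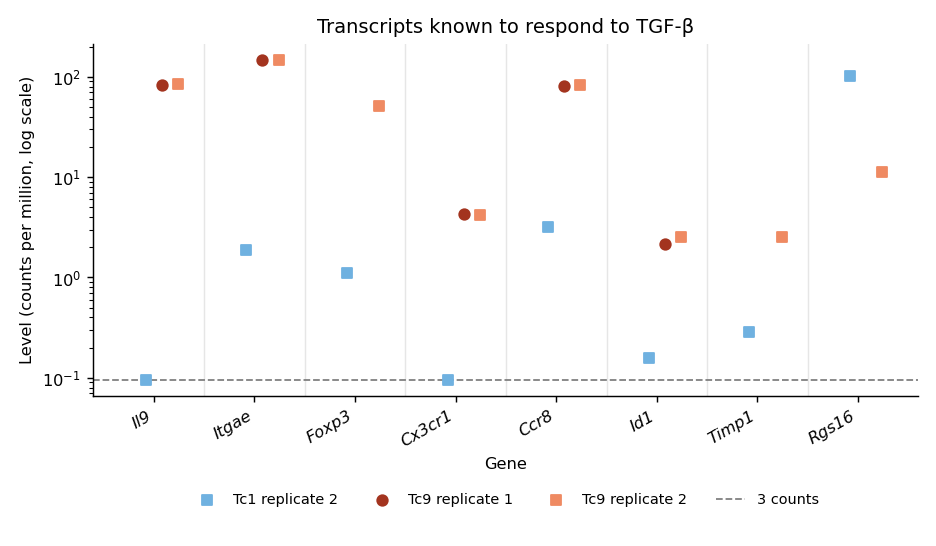
Level in CPM (logarithmic axis) of 8 transcripts known to respond to TGF-β, with blue squares for Tc1 replicate 2, dark red circles for Tc9 replicate 1 where it covers the gene and orange squares for Tc9 replicate 2. The dashed line is 3 counts, on which *Il9* and *Cx3cr1* lie in Tc1, and 7 of the 8 are higher in Tc9 while *Rgs16* is lower.

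Of the effector genes on this list, *Ifng* and *Gzmb* were lower in Tc9. *Ifng* had 15303 counts in Tc1 replicate 2, against 5097 and 4700 in Tc9 (log2 difference -1.64, SE 0.21, adjusted p = 0.00747, edgeR), and *Gzmb*, the granzyme B gene, 215770 in Tc1 and 108448 and 92856 in Tc9 (-1.10, SE 0.18, adjusted p = 0.0149, edgeR). *Eomes*, a transcription factor gene of effector and memory CD8 T cells, had 2965 counts in Tc1, against 2074 and 1886 in Tc9, and did not pass the test (log2 difference -0.58, adjusted p = 0.152, edgeR), and *Cx3cr1*, also found on effector cells, was higher, as given above. On the higher side, *Irf4* had 18150 counts in Tc1 and 42747 to 44730 in Tc9 (1.27, adjusted p = 0.0148, edgeR), and *Nt5e*, the CD73 gene, 668 and 2200 (log2 ratio 1.72). The list thus held transcripts that moved either way.

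*Pmepa1* and *Ldlrad4*, both induced by TGF-β and acting back on SMAD signaling, were covered by Tc9 replicate 2 alone, with 5354 and 1001 counts. So were *Smurf1* and *Smurf2*, which encode ubiquitin ligases of the receptor and the SMADs, with 1973 and 1372 counts. These are levels with no Tc1 value beside them. Among the other genes for ubiquitin turnover and phosphatases, *Usp11* was past 2-fold (675 and 1401 counts, log2 ratio 1.05, 0.92 to 1.19) and 12 of 13 were within it, where 10.9% of all genes were past 2-fold higher and 4.95% lower. *Itch*, *Usp15* and *Wwp1* had adjusted p-values of 0.471, 0.874 and 0.807 by edgeR, that of *Wwp1* being 0.0391 without Tc9 replicate 1.

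Of the 6 SMAD partners tested over 4 libraries, 1 was higher and 1 lower, where 17.4% and 16.7% of all genes were. *Runx1*, a DNA-binding partner of SMADs, had 272 and 260 counts in Tc1, against 631 and 721 in Tc9 (log2 difference 1.35, SE 0.13, adjusted p = 6.25e-05, edgeR). *Runx2*, its relative, went the other way, with 2773 and 2512 in Tc1 and 882 and 981 in Tc9 (-1.5, SE 0.12, adjusted p = 1.99e-05, edgeR). *Runx3*, the family member that drives *Itgae* and CD8 T cell identity, had 10862 and 9804 in Tc1 and 10032 and 11650 in Tc9 (0.07, adjusted p = 0.654, edgeR, and 0.0351 without Tc9 replicate 1). The first 2 thus moved in opposite directions, while *Runx3* had the highest level per length in Tc9 replicate 2, 60.5 FPKM against 3.62 for *Runx1* and 5.46 for *Runx2*. Of the 8 partners tested over 3 libraries, *Ctbp2*, a corepressor gene, came nearest to the threshold (48 counts in Tc1 replicate 2, 16 and 17 in Tc9, adjusted p = 0.0545, edgeR; 0.00758 to 0.262 under alternatives), and the 12 compared in the replicate 2 libraries were within 2-fold, with *Myb* the farthest from level at -0.73 (log2).

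The list of signaling genes outside the core SMAD route, mostly kinases and phosphatases, held 1 call among 7 tested over 4 libraries, *Parp1*, which was lower, as 16.7% of all genes were. It encodes a poly(ADP-ribose) polymerase, neither a kinase nor a phosphatase, with 5589 and 5623 counts in Tc1, against 4649 and 4153 in Tc9 (log2 difference -0.35, SE 0.11, adjusted p = 0.0363, edgeR). That call was lost without Tc1 replicate 1 (adjusted p = 0.373) or without Tc1 replicate 2 (0.442), with no filter (0.0797), without TMM factors (0.0533), with limma on FPKM (0.0571 and 0.0580 with pseudocounts of 0.1 and 1) and with a replicate block (0.0598). *Cdkn1a*, with 5625 and 5229 counts in Tc1, against 3425 and 4272 in Tc9 (-0.49, adjusted p = 0.0163, edgeR), was likewise not called without Tc1 replicate 1 (0.295), without Tc1 replicate 2 (0.181) or with no filter (0.0859). *Map3k7*, the TAK1 gene, had 4628 and 4051 counts in the replicate 2 libraries, a log2 ratio of -0.19. *Tgfb1i1*, which encodes a focal adhesion protein that binds SMAD7, had 30 and 84 counts (1.43, 0.89 to 2.08).

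Activin and BMP ligand transcripts were scarce. *Inhba*, the activin A chain gene, had 29 counts in Tc1 replicate 2, against 80 and 72.5 in Tc9 (log2 difference 1.39, SE 0.34, adjusted p = 0.0553, edgeR). It passed the threshold without TMM factors (0.00579), with a minimum count of 50 (0.00888) and with TMM factors from the 3-library range (0.00819), and not under the other 4 settings (0.0707 to 0.217). *Bmp2*, *Bmp6*, *Nodal*, *Nog* and *Grem1* were at 0 counts in Tc1 replicate 2 and Tc9 replicate 2. The other 4 that could be tested, *Inha*, *Bmp7*, *Gdf11* and *Amh*, had adjusted p-values of 0.177 to 0.809 by edgeR.

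Markers of other cells are given beside these results for the whole lists. Of 11 myeloid genes, 8 of 10 covered were at or under 3 counts in Tc1 replicate 2 and 10 of 11 in Tc9 replicate 2, the defining *Lyz2* at 0 in both, and their summed level was 7.58 and 14.3 CPM. Nearly all of it was *Cd68*, with 226 and 221 counts in Tc1, against 358 and 439 in Tc9 (adjusted p = 0.00295, edgeR). Of 7 fibroblast genes, 5 were at or under 3 counts in each replicate 2 library, with a summed 0.605 and 0.606 CPM. The 4 B cell genes summed to 5.41 and 15.5 CPM, nearly all of it *Cd79b* (155 counts in Tc1 replicate 2, 380 and 473 in Tc9, adjusted p = 0.0219, edgeR), while *Ms4a1* had at most 4 counts in those 3 libraries. The 8 melanoma genes summed to 2.61 and 4.28 CPM, mostly *Pmel*, and the 4 platelet genes to 2.13 and 2.26 CPM over the gene that both cover. The contribution of other cells to the receptor and target differences was not tested.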

How the data were processed

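RNA from sorted tumor-infiltrating Tc1 and Tc9 cells was sequenced as 2 pooled libraries per group. The authors deposited, for every gene listed, expected counts (read numbers estimated per gene, not normalized) and FPKM values (scaled by gene length and library), with a length in bases. The labels name mm10 as genome build; aligner and counter are not given in the sources used here. Gene coordinates and promoter windows are from RefSeq GRCm38.p6, the same assembly.

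Each table lists genes in character order of their identifiers up to its own end point (1535 and 7408 genes for Tc1 replicates 1 and 2, 3152 and 15442 for Tc9). A gene not listed before that point was taken as 0. The depth of Tc9 replicate 2 was the sum of its own counts. The other depths were estimated relative to it, from the ratio of count to FPKM over genes with at least 500 counts in both libraries. TMM factors (0.990, 0.983, 1.01 and 1.02) came from 1284 genes, those of the 1681 reached by all 4 tables that passed the filter given next. Rounded counts were tested, two-sided, with edgeR 4.0.16 (quasi-likelihood, filterByExpr at a minimum count of 10, Benjamini-Hochberg) in R 4.3.3, over 4 libraries, or over 3 where Tc1 replicate 1 ends earlier. Between the replicate 2 libraries log2 ratios used a prior count of 2 and at least 10 counts in either. An exact permutation test of 2 against 2 libraries cannot go below p = 0.333. DESeq2 1.42.0 and limma 3.58.1 were alternatives. On simulated counts, with a dispersion set to 0.01 and not estimated from these libraries, the edgeR steps recovered 98% of 2-fold and 99% of 4-fold changes over 4 libraries (1284 genes, 12 false calls of 209), and 57% and 87% over 3 libraries (2622 genes, 1 false call of 145). These shares hold for that dispersion only.

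The members and lists were chosen with earlier results of these data known. Named beside the members are list genes called by edgeR or past 2-fold, up to 8 a list by size of the difference. Others (among them *Ifng*, *Gzmb*, *Irf4*, *Nt5e*, *Id3*, *Cdh1*, *Cdkn1a*, and genes given as not past a threshold) were named after their values were seen. A few list genes are not reported here. Replicate pairs differed beyond sampling noise (chi-square per gene 4.61 for Tc1 and 42.6 for Tc9), so no pair was treated as 1 library deposited more than once. The replicate numbers come from the labels, and the spread between them may be technical. The study's methods name no molecular identifiers, and the counting intervals, drawn from the counts of 2 libraries, cover counting error only.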

Additional observations from a re-analysis of the deposited data

How the results depend on the processing

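Of 67 values computed for the main comparisons under alternatives, 44 kept their direction and stayed within 1.5 times the reported count or within the spread. Without a filter on low counts, 130 genes were higher and 110 lower over 4 libraries, and 0 and 0 over 3 libraries (598 of 3431 genes at an unadjusted p under 0.05). Over 3 libraries, scaling without TMM factors gave 371 higher and 163 lower, a minimum count of 50 gave 297 and 166, TMM factors from the 3-library range (chosen after seeing the data) gave 328 and 211, and an adjusted p under 0.1 gave 144 lower. Leaving out each library in turn gave 72 to 405 genes higher and 39 to 405 lower over 4 libraries, and 6 to 20 pathway genes called in place of 11: 6 without Tc1 replicate 1 or 2 and 20 without Tc9 replicate 1. Over 3 libraries, leaving out a library was not run, since it leaves no replicates or no Tc1 library. At a 1.5-fold limit 4 members passed in place of 2. The *Smad7* ratio turned to -0.026 with TMM factors from the replicate 2 libraries and to -0.17 with Tc9 replicate 1 averaged in. The cause of these shifts was not tested. The fit with a replicate block called 231 genes higher and 213 lower, sharing 406 calls with the fit without it, and the block ended the call of *Parp1* among the genes named. With the block, *Bmp1* and *Ltbp4* of the ligand list were called higher (adjusted p = 0.0297 and 0.0279, edgeR). They were not called without it (0.0526 and 0.0894). Same-numbered libraries did not deviate together (correlation -0.06 across 1284 genes), and nothing states that they share mice. Of the single genes, 240 values stayed on their side of the threshold or within counting error, 32 no longer passed the threshold, 4 moved and 2 turned sign. Depth limits the low transcripts, 3 counts being about 0.0956 CPM.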
